A study of Mus musculus with 6 samples.

Results

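Resident and alternatively activated macrophage genes form a set of 10 genes: Retnla, Mgl2, Ccl24, Cd209d, Mrc1, Cd163, Lyve1, Timd4, Folr2 and Clec10a. They were read from the 11 probe sets that the platform annotation pairs with 1 of these symbols and no other gene (Lyve1 has 2 probe sets), out of 34958 probe sets with 1 gene and 18194 genes. The list was selected on prior knowledge of these genes and on results of the same comparison of transgenic with wild type fat that is described here. The differences of the members between the groups are therefore a description, and the calls given for them support nothing further.

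Fat-resident macrophages are long-lived phagocytes that lie along vessels and between fat cells, take up debris, haemoglobin, hyaluronan fragments and glycoproteins through surface receptors, and are maintained by the growth factor receptor CSF1R. Alternative activation is the state that macrophages enter under the type 2 cytokines IL-4 and IL-13, which act through the transcription factor STAT6 and induce lectin receptors and secreted proteins such as RELMα, the product of Retnla. In lean white fat such macrophages are common, whereas macrophages around damaged or overloaded fat cells carry a lipid-handling and lysosomal program.

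RNA was taken from epididymal white fat of male mice of the C57BL6;SJL background aged 10 weeks, with 1 mouse on each Affymetrix MOE430v2.0 array. The transgenic group (3 mice, Tg1 to Tg3) carried aP2-nSREBP1c, which expresses the nuclear form of the lipid synthesis regulator SREBP-1c from the aP2 promoter, and the labels call these mice lipodystrophic; the control group (3 mice, WT1 to WT3) was wild type and matched by litter, per the series design. The labels spell the transgene differently on each of the 3 transgenic samples (aP2-nSrebp1c Tg, aP2-nSrebp1 Tg and aP2-SREBP1c Tg), and they are treated as 1 group because the titles do so. The aP2 promoter is that of Fabp4, a gene of fat cells that macrophages also express, so that the transgene is not restricted to fat cells by its design alone. Values are MAS5 signals, a linear intensity per probe set, and fold changes are differences of log2(signal + 16), so that changes of dim genes come out too small. A level of 1 probe set is compared only with the same probe set on other arrays.

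The tissue label matched its markers: Fabp4 and Adipoq had mean wild type signals of 13343 and 11293, and the 7 epididymis genes on the array summed to 109 to 175 on every array. Array medians lay between 53.4 and 65.4, except for Tg2 with 37.7. That array stood apart in RNA quality, with a 3′ over 5′ signal ratio of 122 for Actb and 55.9 for Gapdh, where the other arrays had 1.12 to 1.81 and 0.772 to 1.22. Counts of genes past the threshold and the fold changes of the members are therefore also given without Tg2. Samples are tissue RNA, so that fewer cells of a type and less RNA per cell cannot be told apart in any value below.

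Of the 10 members, 4 fell in transgenic fat (Retnla, Mgl2, Ccl24 and Cd209d), none (0) rose and 6 did not pass an adjusted p of 0.05 in limma's fit over the whole table. At an unadjusted p of 0.05 limma had 6 lower and 0 higher. The share of all genes at that unadjusted level is not given. Unadjusted counts here and below therefore have no background to be read against. Over all 13112 genes tested, 1.54% passed the adjusted threshold lower and 2.23% higher. The median log2 fold change of the members was -1.25, against -0.04 for all genes. Without Tg2, 6 members fell, adding Cd163 and Lyve1, and 0 rose (0 also unadjusted), with a median of -1.20 beside 0.02 for all genes; the background was then 7.33% lower and 8.04% higher. In 7 members all transgenic signals lay below all wild type signals, an ordering that 16.3% of all genes showed, and in 0 members they lay above, against 14.1% of all genes. All 11 probe sets passed the filter on dim probe sets.

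The call of Retnla held in each of the 17 alternative fits of its probe set. That of Mgl2 held in 14, that of Ccl24 in 13 and that of Cd209d in 11. Leaving out 1 wild type array left 1 member called, Retnla, whichever of WT1, WT2 and WT3 it was; 2 were called without Tg3 and 3 without Tg1. The sign of no member probe set changed in any of these fits.

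**Figure D1:**
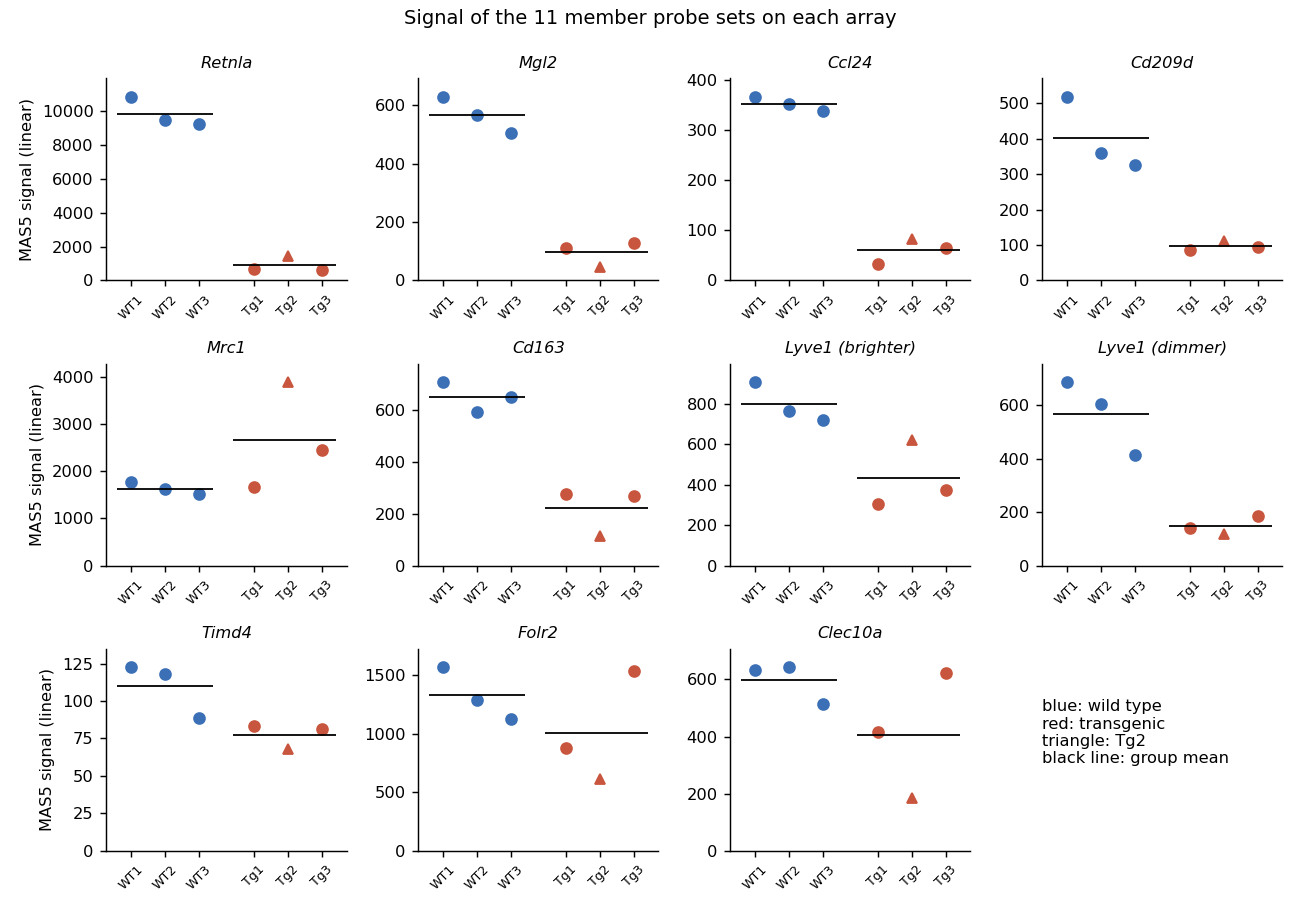
MAS5 signal (linear axis from 0) of the 11 member probe sets on the 6 arrays, 1 panel per probe set; blue points are wild type mice, red points transgenic mice, the red triangle is Tg2 and black lines are group means. Retnla, Mgl2, Ccl24, Cd209d and Cd163 show no overlap between the groups, whereas Mrc1, Folr2 and Clec10a overlap between the groups.

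The promoter region of Retnla is shown because this gene had the largest difference of the set, with those of Mgl2 and Cd209d, the other members with a call for which the RefSeq promoter table (GRCm38.p6) holds a window. Each is given 5′ to 3′ for the 250 bases before the start site, and capitals mark matches to the motifs searched. Retnla lies at chr16:48842359-48842608, plus strand, Mgl2 at chr11:70130107-70130356, plus strand and Cd209d at chr8:3878500-3878749, minus strand.
Retnla: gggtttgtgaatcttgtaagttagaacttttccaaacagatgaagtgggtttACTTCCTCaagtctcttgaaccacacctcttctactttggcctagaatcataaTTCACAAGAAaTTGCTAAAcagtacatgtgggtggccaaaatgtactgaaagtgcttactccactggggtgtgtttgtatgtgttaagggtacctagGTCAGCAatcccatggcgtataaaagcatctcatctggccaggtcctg
Mgl2: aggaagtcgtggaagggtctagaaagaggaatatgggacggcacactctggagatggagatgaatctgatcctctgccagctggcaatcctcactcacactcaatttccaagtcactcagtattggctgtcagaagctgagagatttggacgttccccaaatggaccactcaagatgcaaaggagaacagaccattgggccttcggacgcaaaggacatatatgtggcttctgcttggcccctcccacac
Cd209d: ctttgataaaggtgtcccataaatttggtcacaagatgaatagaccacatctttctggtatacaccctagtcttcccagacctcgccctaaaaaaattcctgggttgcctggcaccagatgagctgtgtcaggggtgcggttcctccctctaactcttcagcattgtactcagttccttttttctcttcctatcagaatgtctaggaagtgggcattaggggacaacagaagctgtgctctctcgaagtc

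The motifs were searched on both strands in windows of 250 bases before to 50 bases after the start, of which the table holds 32851 in all and 8 for 7 of the members. Ccl24, Lyve1 and Clec10a have none in the table. The STAT6 motif TTCNNNNGAA was found in the window of Retnla, as TTCACAAGAA beginning 145 bases before the start, and in 6.95% of all windows. A C/EBP motif, TTGCNNAA (10.8% of all windows), began 134 bases before the start of Retnla, next to the STAT6 match. Retnla also held a match to the PU.1 motif GAGGAAGT on the opposite strand (3.20% of all windows), beginning 198 bases before the start, and to the MAF motif TGCTGAC on the opposite strand (4.67%), beginning 48 bases before it. None of these matches overlaps another. Timd4 held a MAF motif and a sterol element TCACNCCAC (1.24% of all windows). No window of Mgl2, Cd209d, Mrc1, Cd163 or Folr2 held a match to these motifs, nor any member to the STAT motif TTCNNNGAA (8.30%) or the E-box CACGTG (7.15%). Matches are descriptions of the letters and not evidence of binding.

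Among the secreted members, Retnla, which encodes the small cysteine-rich protein RELMα, fell most. Its signal was 10863, 9496 and 9264 in WT1, WT2 and WT3 and 701.4, 1447 and 591.8 in Tg1, Tg2 and Tg3. The groups were far apart, and within the transgenic group Tg2 was the highest. The difference was 11.5-fold (log2 fold change -3.52 ± 0.34 SE, n = 3 per group), and 14.9-fold (-3.90 ± 0.15 SE) without Tg2. Its close relative Retn, the resistin gene of mouse fat cells, read 11613, 10295 and 11670 in the wild type mice and 7598, 7682 and 9656 in the transgenic mice. Every transgenic value was lower, but the log2 fold change of -0.44 ± 0.14 SE, and -0.38 without Tg2, did not pass the threshold.

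Ccl24 encodes a chemokine of the eotaxin group, which attracts eosinophils through the receptor CCR3. Its signal was 367.1, 353.4 and 338.9 in WT1, WT2 and WT3 and 33.2, 83.4 and 64.8 in Tg1, Tg2 and Tg3. The wild type mice were nearly equal, with a coefficient of variation of 4.0%, and every transgenic mouse was lower. The fall was 5.03-fold (-2.33 ± 0.31 SE), and 5.85-fold without Tg2 (-2.55 ± 0.24 SE). Ccl11, another eotaxin gene, had signals of 700.2, 661.2 and 722.2 in wild type and 420.9, 62.4 and 634.9 in transgenic fat. Its log2 fold change of -1.34 ± 0.75 SE did not pass the threshold and was -0.41 without Tg2, so that the size rested mainly on that array. The eosinophil markers gave no usable count, since 6 of 7 on the array were removed by the filter on dim probe sets, and Siglecf read 15.3 to 52.6 in wild type and 13.3 to 35.9 in transgenic fat.

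The lectin receptors bind sugars on glycoproteins and microbes and differed among themselves. Mgl2, a galactose-type C-type lectin of macrophages and dendritic cells, had signals of 628.7, 565.7 and 506.0 in WT1, WT2 and WT3 and 112.5, 45.7 and 129.9 in Tg1, Tg2 and Tg3. It fell 5.53-fold (-2.47 ± 0.37 SE), and 4.24-fold without Tg2 (-2.08 ± 0.19 SE). Clec10a, the paralogous galactose-type lectin and the next protein-coding gene after Mgl2 in the RefSeq order of chromosome 11, had 634.6, 643.2 and 514.5 in wild type and 414.8, 184.1 and 621.9 in transgenic fat. The groups overlapped through Tg3, and the log2 fold change of -0.68 ± 0.44 SE did not pass the threshold; without Tg2 it was -0.22 ± 0.22 SE. Set against Clec10a on the same array, with the wild type mean at 0, Mgl2 lay at 0.06, -0.11 and 0.05 in the wild type mice. In Tg1, Tg2 and Tg3 this log2 difference was -1.67, -1.63 and -2.06. The neighbouring paralogs were thus separated by a similar amount on all 3 transgenic arrays, including Tg2. Related sequences can share hybridisation to a probe set, and this was not tested.

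Cd209d belongs to the mouse family of DC-SIGN-like lectins. Its signal was 518.9, 361.1 and 324.9 in WT1, WT2 and WT3 and 86.2, 112.2 and 93.3 in Tg1, Tg2 and Tg3. It fell 3.63-fold (-1.86 ± 0.27 SE), and 3.88-fold without Tg2 (-1.95 ± 0.23 SE). The transgenic mice were close to each other and all well below the lowest wild type mouse. Of the 5 other Cd209 genes tested, 0 passed the threshold, and their log2 fold changes ran from 0.03 for Cd209c to -1.88 for Cd209g, with Cd209f at -0.47, Cd209a at -0.98 and Cd209b at -1.40. Cd209g read 371.9, 404.3 and 309.7 in wild type and 105.2, 19.4 and 232.2 in transgenic fat. Cd209b read 230.5, 159.9 and 216.2 in wild type and 85.5, 31.6 and 97.2 in transgenic fat. Cd209a, Cd209b and Cd209g lay below wild type without overlap, as did 16.3% of all genes. Without Tg2 Cd209b and Cd209g fell (-1.01 and -1.12), while Cd209a had -0.74 and Cd209f -0.19. Because these genes are close relatives on 1 chromosome, their probe sets may share signal, which was not tested.

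Mrc1, the mannose receptor gene and a widely used marker of alternative activation, did not follow the other lectins. Its signal was 1775, 1615 and 1506 in WT1, WT2 and WT3 and 1672, 3888 and 2437 in Tg1, Tg2 and Tg3. Tg1 lay inside the wild type range and the other transgenic mice above it. The log2 fold change was 0.62 ± 0.32 SE (1.54-fold higher), and 0.31 ± 0.19 SE without Tg2, and neither passed the threshold. It was the single member with a positive value in each of the alternative fits, in which it ran from 0.22 to 0.91.

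The uptake receptors comprise Cd163, which clears haptoglobin-bound haemoglobin, Lyve1, which binds hyaluronan, Timd4, which binds phosphatidylserine on dying cells, and Folr2, the folate receptor beta gene. Cd163 had signals of 709.0, 591.7 and 651.9 in WT1, WT2 and WT3 and 276.5, 115.4 and 270.2 in Tg1, Tg2 and Tg3. Every transgenic value was under every wild type value. Its log2 fold change was -1.58 ± 0.36 SE (2.99-fold lower), which did not pass the threshold with all arrays. Without Tg2, which was the lowest, it was smaller and less variable, and Cd163 then fell 2.30-fold (-1.20 ± 0.18 SE).

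The probe sets of Lyve1 differed in size. The brighter one had 908.3, 764.3 and 722.4 in WT1, WT2 and WT3 and 302.2, 622.3 and 374.1 in Tg1, Tg2 and Tg3. The dimmer one had 687.3, 605.8 and 413.8 in wild type and 142.2, 117.0 and 187.2 in transgenic fat. On neither did the groups overlap. The log2 fold change was -0.92 ± 0.32 SE on the brighter probe set, which did not pass the threshold, and -1.82 ± 0.30 SE on the other, which did. The call of the dimmer probe set held in 11 of its 17 alternative fits and was lost with the replicate number as a block and without WT1, WT2, WT3, Tg1 or Tg3. The discrepancy was largest on Tg2: the log2 difference between the probe sets, with the wild type mean at 0, was -0.51, -1.76 and -0.44 in Tg1, Tg2 and Tg3. Without Tg2 both passed, at -1.20 ± 0.19 and -1.68 ± 0.25 SE. Lyve1 also marks lymphatic endothelium. Of 8 lymphatic endothelial genes tested 0 passed the threshold (limma; 1 higher and 0 lower at an unadjusted p of 0.05), also 0 without Tg2 (1 higher and 3 lower unadjusted), their median log2 fold change was -0.19, and the summed signal of the 9 on the array ran from 3502 to 4115 in wild type and from 2673 to 3820 in transgenic fat. Prox1, which defines that lineage, read 2.7 to 11.9 on all arrays, below the offset of 16. The part of lymphatic cells in the Lyve1 values was not tested.

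Timd4 was dim, with 122.7, 117.9 and 89.0 in WT1, WT2 and WT3 and 83.1, 67.8 and 81.4 in Tg1, Tg2 and Tg3. The groups did not overlap, but the gap between WT3 and Tg1 was small beside the spread of the wild type mice, and the log2 fold change of -0.42 ± 0.22 SE, and -0.35 ± 0.22 SE without Tg2, did not pass the threshold. Folr2 had 1570, 1290 and 1130 in wild type and 878.4, 613.3 and 1538 in transgenic fat. Tg3 lay within the wild type range, and the log2 fold change of -0.48 ± 0.36 SE (-0.18 ± 0.25 SE without Tg2) did not pass the threshold. Among the transgenic arrays Tg2 was the extreme on all 11 member probe sets, the highest on 5 (Retnla, Ccl24, Cd209d, Mrc1 and 1 of Lyve1) and the lowest on 6. The share of all probe sets on which Tg2 was the extreme is not given, so the count cannot be read as particular to the members. This array's part in the spread of the members differed in direction from gene to gene.

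**Figure D2:**
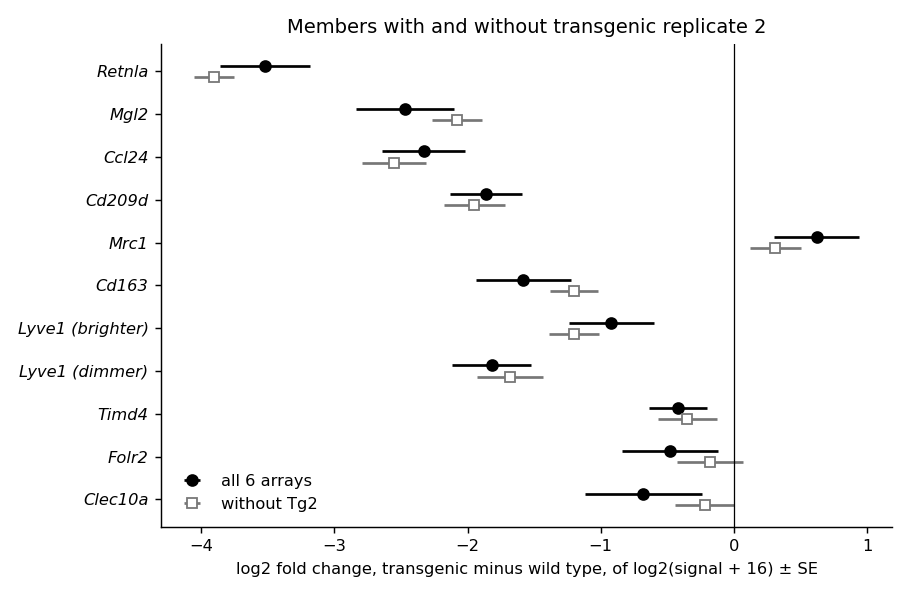
Log2 fold change (transgenic minus wild type, of log2(signal + 16)) of each member probe set with its standard error from limma; filled circles use all 6 arrays and open squares leave out Tg2. Retnla lies at -3.52 and -3.90, Mrc1 alone lies above 0, and the error bars of most probe sets are shorter without Tg2.

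Genes shared by macrophages in general had higher signals in the same fat. Of 18 such genes 6 rose, 0 fell (limma; 12 higher and 0 lower at an unadjusted p of 0.05) and 12 did not pass the threshold, with a median log2 fold change of 1.27; without Tg2, 15 rose and 0 fell (15 and 0 unadjusted). Leaving out WT1, WT2 or WT3 left 0 of them called, and leaving out Tg3 left 1. Those with the largest values among the called were Ms4a7 (2.56 ± 0.29 SE), Mpeg1, which encodes the pore-forming perforin-2 (2.37 ± 0.34 SE), the Fc receptor gene Fcgr1 (1.64 ± 0.30 SE) and the cathepsin S gene Ctss (1.60 ± 0.25 SE). Adgre1, the F4/80 gene, read 830.9, 763.5 and 609.4 in wild type and 1505, 3320 and 2613 in transgenic fat (1.67 ± 0.33 SE, not called with all arrays). Csf1r, the growth factor receptor, had 0.54 ± 0.23 SE, and Cd68 had 1.26 ± 0.72 SE, or 2.13 without Tg2, on which its signal was below all wild type signals; neither passed with all arrays.

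Against the mean log2 level of these 18 genes on the same array, the members were lower on each transgenic array. The mean of the 10 members minus that of the general genes was 0.14, 0.10 and 0.23 in WT1, WT2 and WT3 and -2.32, -2.17 and -2.55 in Tg1, Tg2 and Tg3. The difference between the group means was -2.50, and -2.59 without Tg2. The general genes themselves averaged 9.62, 9.48 and 9.22 in WT1, WT2 and WT3 and 10.44, 10.34 and 10.95 in Tg1, Tg2 and Tg3. A gene with unchanged signal would therefore also come out lower in transgenic fat on this scale. On this relative scale 9 of the 10 members lay below wild type without overlap, but so did 78.2% of all 13112 genes, because the general macrophage genes subtracted were higher in transgenic fat, so that this count shows little about the members. Above wild type without overlap lay 0 members and 1.56% of all genes. With each gene's wild type mean at 0, the mean in transgenic fat was -4.66 for Retnla, -3.61 for Mgl2, -3.47 for Ccl24, -3.00 for Cd209d, -2.72 for Cd163, -2.05 for Lyve1, -1.82 for Clec10a, -1.62 for Folr2 and -1.56 for Timd4. These values include the rise of the general genes. The log2 fold changes of Clec10a, Folr2 and Timd4 themselves were -0.68, -0.48 and -0.42 and were not called. Mrc1 was the exception with overlap, at -0.97, 0.35 and -0.94 in Tg1, Tg2 and Tg3. Mrc1 was thus among the minority of genes that overlapped on this scale or lay above wild type. The scale is not a level per cell.

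**Figure D3:**
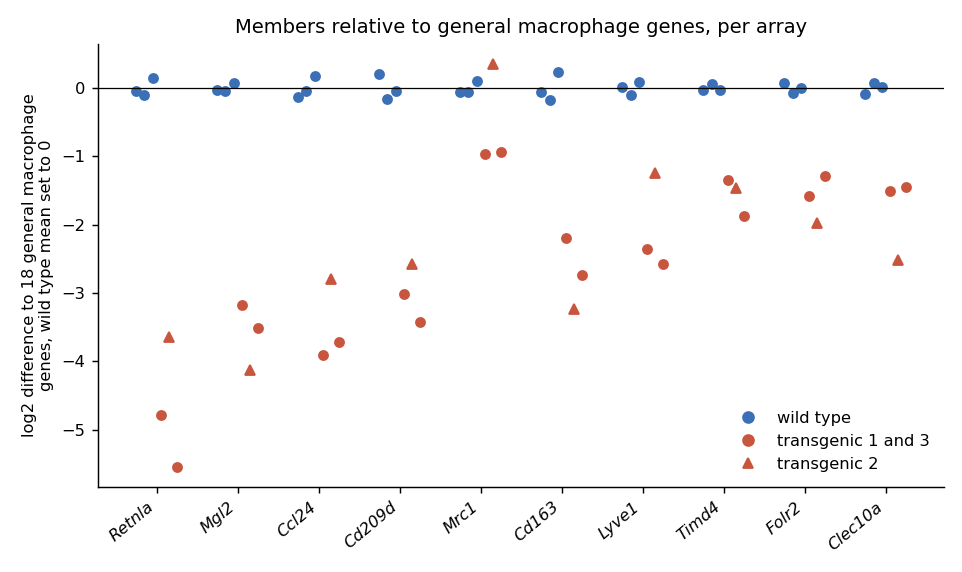
Log2 level of each member minus the mean log2 level of 18 general macrophage genes on the same array, with each member's wild type mean set to 0; blue points are wild type, red points Tg1 and Tg3, red triangles Tg2. All transgenic points lie below the wild type points except the Mrc1 value of Tg2, at 0.35; 78.2% of all genes lie without overlap below wild type on this scale.

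The lipid-associated macrophage genes also had higher values. Of 18 tested, 7 rose, 0 fell (limma; 13 higher and 0 lower unadjusted) and 11 did not pass, with a median of 1.25; without Tg2, 13 rose and 0 fell (16 and 0 unadjusted). Leaving out 1 wild type array left 0 or 1 called, and leaving out Tg3 left 3. Those with the largest values among the called were the proton pump subunit gene Atp6v0d2 (3.65 ± 0.38 SE), the lectin gene Clec4d (3.18 ± 0.37 SE), the metalloelastase gene Mmp12 (2.86 ± 0.55 SE) and the cholesterol ester hydrolase gene Nceh1 (2.18 ± 0.42 SE). Among the 20 tested relatives of the members, Clec4d and the beta-glucan receptor gene Clec7a (1.76 ± 0.31 SE) rose, 0 fell (limma; 5 higher and 4 lower unadjusted) and 18 did not pass; without Tg2, 5 rose and 2 fell (6 and 4 unadjusted), those that fell being Cd209b and Cd209g. C-type lectins thus lay on both sides, with Mgl2 and Cd209d lower and Clec4d and Clec7a higher.

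Other genes described in resident macrophages were mixed. Of 33 tested, 1 rose, 0 fell (limma, with 9 higher and 5 lower unadjusted) and 32 did not pass, with a median of -0.07. Without overlap, 10 lay above and 8 below wild type, orderings that 14.1% and 16.3% of all genes showed. The gene that rose was Vsig4, a complement receptor of resident macrophages, which read 92.6, 91.2 and 81.5 in wild type and 348.5, 560.1 and 397.9 in transgenic fat (2.09 ± 0.26 SE). Without Tg2, 7 rose and 6 fell. Named after their values were seen, those that then rose included the haem oxygenase gene Hmox1 (2.80) and the iron exporter gene Slc40a1 (0.78), and those that fell included the ficolin gene Fcna (-1.03) and the factor XIII gene F13a1 (-0.77). Hmox1 read 322.1, 318.2 and 294.7 in wild type and 2070, 761.9 and 2487 in transgenic fat, whereas Fcna read 1107, 1077 and 1008 in wild type and 431.0, 325.2 and 612.4 in transgenic fat. Stab1, a scavenger receptor gene often paired with Lyve1, had 0.47 ± 0.32 SE. Pf4, named after its values were seen, read 2210, 2371 and 2051 in wild type and 1823, 3882 and 2840 in transgenic fat, with overlap between the groups.

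Outside the members, the listed genes that drive or accompany alternative activation did not pass the threshold with all arrays. Of 12 tested genes of IL-4, IL-13 and IL-33 signalling, 0 passed in either direction (limma; 0 also at an unadjusted p of 0.05), with a median log2 fold change of -0.02; without Tg2 it was again 0 in either direction (1 higher and 0 lower unadjusted). Stat6 read 1389, 1150 and 946.6 in wild type and 916.7, 909.0 and 1344 in transgenic fat (-0.14 ± 0.27 SE), and Il33, an alarmin gene of stromal cells, had 0.19 ± 0.25 SE. Il4ra, the receptor chain for IL-4 and IL-13, had -0.52 ± 0.73 SE with all arrays and 0.38 without Tg2, on which it read 44.7 against 312.4 and 453.3 in the other transgenic mice. Il4, Il5 and Il13 were dim on all arrays and were removed by the filter. These values set no bound on cytokine protein.

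Of 17 tested further genes of alternative activation, 0 passed with all arrays (limma; 2 higher and 6 lower unadjusted), and without Tg2, 2 rose and 5 fell. Arg1, the arginase gene, read 18.2 to 61.4 in wild type and 20.4 to 48.0 in transgenic fat, dim enough to be left out of the test. Chil3, which encodes the lectin Ym1, read 63.0, 21.4 and 33.4 in wild type and 74.1, 143.5 and 110.3 in transgenic fat, higher without overlap (1.21 ± 0.36 SE, not called). Named after their values were seen, the transcription factor genes Irf4 and Klf4, which act downstream of IL-4 in macrophages, fell without Tg2 (-1.23 and -1.04), as did the chemokine gene Ccl17 (-1.56). The rest that fell, also named after their values were seen, were Kdm6b (-1.42) and Pparg (-1.13), which is on the adipocyte list as well. The 2 that then rose, also named after their values were seen, were the transcription factor genes Egr2 (1.08) and Ppard (0.79). Egr2 read 81.7, 69.9 and 66.6 in wild type and 133.0, 389.0 and 217.7 in transgenic fat, without overlap. Irf4 read 191.4, 175.7 and 121.6 in wild type and 70.9, 12.8 and 48.8 in transgenic fat. Klf4 is also expressed by other cells of fat, and which cells the Irf4, Klf4 and Ccl17 signals came from was not tested. Of Arg1, Chil3 and Retnla, often named together as markers of this state in the mouse, only Retnla had a call. Chil3 was not called with or without Tg2, and Arg1 was not tested.

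**Figure D4:**
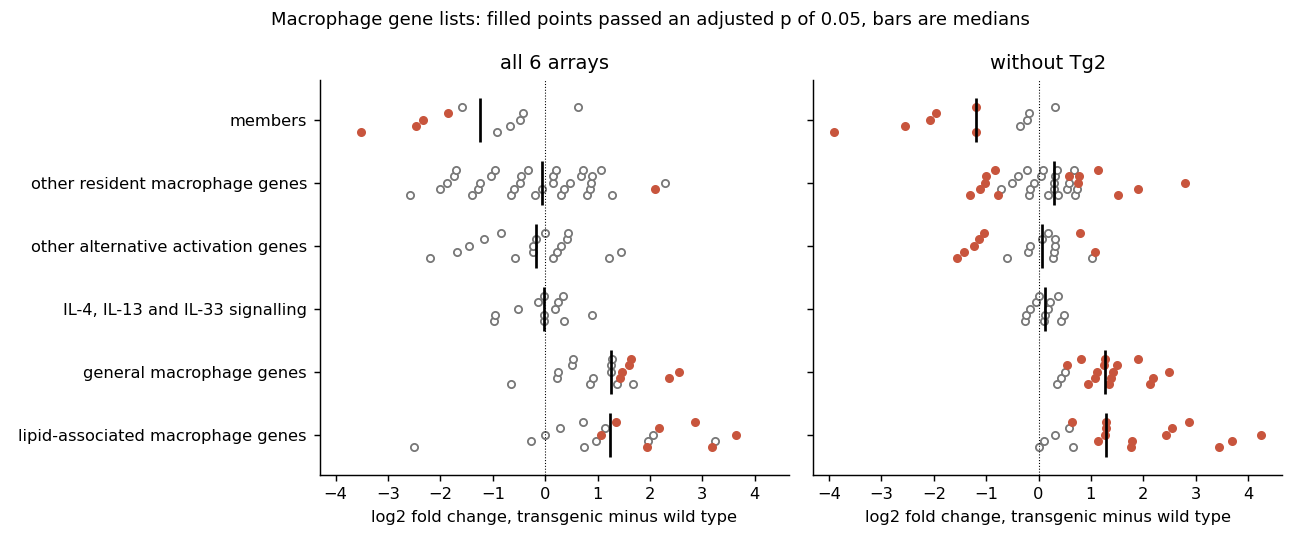
Log2 fold changes (transgenic minus wild type) of tested genes in 6 lists, with all 6 arrays on the left and without Tg2 on the right; filled points passed an adjusted p of 0.05 in limma and vertical bars are medians. The members have a median of -1.25 and the general and lipid-associated macrophage genes medians of 1.27 and 1.25, while the signalling list is centred near 0.

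Of 8 tested genes for growth factors and receptors that maintain resident macrophages, 0 passed (limma; 0 higher and 1 lower unadjusted), and without Tg2 1 rose and 1 fell. Named after their values were seen, the gene that then rose was the receptor gene Csf2ra (0.82). The gene that then fell, also named after its values were seen, was Il34, which encodes a ligand of CSF1R. Il34 read 286.2, 315.2 and 210.7 in wild type and 114.6, 19.4 and 89.0 in transgenic fat (-1.85 ± 0.50 SE, and -1.27 without Tg2). Csf1, the other ligand, read 768.4, 759.1 and 671.7 in wild type and 514.9, 217.8 and 614.7 in transgenic fat. Its log2 fold change was -0.81 ± 0.40 SE, and -0.37 without Tg2, and neither was called. All transgenic values of both ligands lay below all wild type values, an ordering that 16.3% of all genes showed. Csf1r itself overlapped between the groups.

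Markers of other cells of the fat pad differed by cell type, although with all arrays most genes of each list were not called. The mesothelial and adipocyte lists had the lowest medians, at -1.26 and -1.25. Of 9 mesothelial genes 2 fell, Msln (-2.72 ± 0.50 SE) and Krt19 (-1.86 ± 0.33 SE), and 0 rose (limma, 0 also unadjusted). All 9 lay without overlap below wild type, as did 16.3% of all genes. Without Tg2, 8 mesothelial genes fell. Their summed signal was 6363 to 7086 in wild type and 1731 to 2576 in transgenic fat (2242 to 2576 without Tg2). Of 9 adipocyte genes 2 fell, Lep (-3.74 ± 0.31 SE) and Adipoq (-0.93 ± 0.18 SE), and 0 rose (0 also unadjusted). Without Tg2, 7 adipocyte genes fell. Their summed signal was 61150 to 67878 in wild type and 24207 to 40387 in transgenic fat (35174 to 40387 without Tg2). Fabp4, also on this list, overlapped between the groups, with mean signals of 13343 in wild type and 13343 in transgenic fat. Of 13 dendritic cell genes, a cell type that also expresses Mgl2 and Cd209 genes, Dpp4 fell (-1.45 ± 0.27 SE), 0 rose (limma; 1 higher and 3 lower unadjusted) and 12 did not pass, with a median of -0.41. Without Tg2, 2 dendritic cell genes rose, Itgax (1.29) and Irf8 (0.99), 1 fell (Dpp4) and the median was 0.01. Whether the Dpp4 signal came from dendritic cells or from other cells of the fat pad was not tested. The dendritic cell genes summed to 19846 to 22050 in wild type and 14201 to 23934 in transgenic fat (18382 to 23934 without Tg2). Most of that sum came from Cd74, H2-Aa, H2-Eb1 and H2-Ab1, with mean wild type signals of 7608, 4828, 4058 and 2688. The sum therefore says little about the other genes of the list. Of 8 progenitor and fibroblast genes 0 passed (limma; 0 higher and 2 lower unadjusted), and without Tg2, 0 rose (1 unadjusted) and 2 fell, Pi16 (-2.57) and Col15a1 (-1.01). Of 6 tested genes of group 2 innate lymphoid and regulatory T cells 0 passed (limma; 2 higher and 0 lower unadjusted), and without Tg2, 2 rose, Il7r (1.78) and Cd3e (1.27), and 0 fell (0 also unadjusted). Itgax, Irf8, Pi16, Col15a1, Il7r and Cd3e were named after their values were seen, and Itgax and Il7r are also on the lipid-associated list. Of the 15 genes outside the members that are named here with a call on all arrays, 2, 1 and 2 kept it without WT1, WT2 and WT3, 9 without Tg1, 15 without Tg2 and 6 without Tg3; the call of Lep held whichever array was left out, and that of Atp6v0d2 in all cases but WT2. None of the markers of these lists was at 0 on all arrays. The part of changes in these cell types in the values of the members was not tested.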

How the data were processed

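The authors deposited MAS5 signal intensities, 1 linear value per probe set and array, per the submitters' processing notes; the version and scaling target of MAS5 were not given in the sources used here, and there are no detection calls to use. Of 45101 probe sets, 34958 were paired with 1 gene by the platform annotation, 932 with several and 9211 with none. Matching gene identifiers to the RefSeq table (GRCm38.p6) changed 0 symbols, and those of 204 probe sets were not in it. No values of other samples were in the table (0 columns).

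The 64 control probe sets and the 40% of the remaining probe sets with the lowest mean were left out. The other 27023 were tested as log2(signal + 16) with limma 3.58.1 (lmFit, eBayes with trend, two-sided, 4 residual degrees of freedom) in R 4.3.3, with Benjamini-Hochberg adjustment over all of them and a threshold of 0.05. The brightest tested probe set stood for a gene (13112 genes). Tables and figures were made with Python 3.11.15, pandas 2.3.3, numpy 2.4.6 and matplotlib 3.10.9. The fit was tested on simulated data, but the setting and outcome are not given here, so that test supports no call. Each array is a separate mouse, so p-values include animal and handling spread, and the number of arrays limits the precision. Quantile normalization moved the median log2 fold change of all genes from -0.04 to 0.06.

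The members and all lists were chosen with earlier results of these data known. Named genes are all 10 members, in each other list up to 4 called genes ranked by absolute change, and a few genes fixed by name whatever their values; of these, Retnlg had no probe set of its own in the annotation. Genes outside the rule are marked as named after their values were seen, apart from Cd209b, Cd209c, Cd209f, Cd209g, Fabp4, Il4, Il5, Il13 and Il4ra's signals, which complete a family or a check. Alternatives were offsets of 1 and 64, filters of 0 and 60%, quantile normalization, median centring, eBayes without trend or made robust, weights per array, a replicate block, leaving out each array, Tg2 left out with quantile normalization, and the mean over a gene's probe sets.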

Additional observations from a re-analysis of the deposited data

How the results depend on the processing

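The count of members lower in transgenic fat was 4, and 1 to 6 with 1 array left out; it was 3 to 6 under the other alternatives, and the count higher was 0 in all 18. The median of the members stayed negative in all 18 alternatives. All 11 member probe sets kept their sign in their 17 alternative fits, in which Retnla ran from -3.93 to -3.27, Mgl2 from -2.71 to -2.02, Ccl24 from -2.62 to -1.77, Cd209d from -2.01 to -1.51 and Folr2 from -0.83 to -0.07. The number of probe sets past the threshold over the whole table was 802, and 141 to 3565 with 1 array left out, 3359 with array weights, 341 with the replicate block and 4975 without Tg2 after quantile normalization. The difference of -2.50 between members and general macrophage genes was -2.26 with an offset of 64; the offset compresses dim values by construction. It ran from -2.60 to -2.40 otherwise.

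With the replicate number as a block, 3 members were lower, and the call of Cd209d was lost. Of the 15 called genes named from other lists 5 kept their call under the block. Deviations of mice with the same number correlated at -0.37, 0.09 and -0.05 for numbers 1, 2 and 3. Those of mice with different numbers ran from -0.27 to 0.45. With 3 mice per group and Tg2 apart, these correlations cannot show whether the numbers follow litters. No label ties a number to a litter, so the numbers were not taken to pair the mice. Of 540 counts of the other lists under an alternative, 423 stayed within 1.5 times the main count and 117 did not. Signals near 16 lie close to background, which limits Il5, Il13 and Prox1 most.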
